A study of Sus scrofa with 48 samples.

Results

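The T cell receptor complex and coreceptors were followed in whole blood through 10 named genes, CD3D, CD3E, CD3G, CD247, CD4, CD8A, CD8B, CD28, LCK and ZAP70. The members were the array spots whose gene name equals one of these symbols and that the authors retained. Retained spots represented 8 of the 10 members, with 21 of the 37113 retained spots and 8 of the 10946 named genes tested. No spot on the array carried the name CD28 or ZAP70, so that neither was analysed here. The 48 donors were castrated male French Large White pigs, 132 days old, of a line with low and a line with high residual feed intake (RFI), the feed eaten beyond what growth and maintenance predict. Each line was fed ad libitum a high fat, high fiber (HF) diet or a low fat, low fiber (LF) diet, with 12 pigs in each of the 4 groups, called low RFI HF, low RFI LF, high RFI HF and high RFI LF. Every pig had its own 1-colour array, and each of 6 slides carried 2 pigs of each group. All pigs came from the same selection experiment, so that the lines differ in their breeding history and not in 1 known allele.

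The T cell receptor binds peptides on other cells through its variable chains, which have no signalling tails of their own. It signals through the CD3 chains (CD3D, CD3E and CD3G) and the zeta chain CD247, whose tails the kinase LCK phosphorylates. LCK is carried to the receptor by the coreceptors CD4 and CD8 (a CD8A chain paired with CD8A or CD8B), and the kinase ZAP70 then docks on the phosphorylated tails. Pig blood is known for many T cells with a gamma delta receptor and for T cells that carry CD4 and CD8 together. NK cells of the pig also carry CD8A, CD247 and LCK. Since whole blood was measured, more T cells and more RNA of a gene per T cell cannot be told apart in any value given here. In the RefSeq gene table (assembly Sscrofa11.1) CD3E, CD3D and CD3G are adjacent entries and so are CD8B and CD8A. No coordinates are given, because the build behind the array annotation is not given in the sources used here.

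Each spot holds a probe of 60 bases, and the probes of the members are shown where their number or overlap bears on a value. LCK had 4 probes that share no run longer than 6 bases. They are written 5′ to 3′ as the scanner files list them, in full for A_72_P155131 and for the first 30 bases otherwise.
LCK A_72_P155131: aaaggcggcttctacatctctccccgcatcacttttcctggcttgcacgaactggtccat
LCK A_72_P290209: ttgtacatgtgtggcctgtgcatatatgtc
LCK O11768: tttctcttggtcatcaagaagctccttgag
LCK A_72_P338103: cagccagggacttgattttgatgtatttta

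The 2 dim CD3D probes lie end to end on the transcript, with 8 shared bases (in capitals), and the third, bright CD3D probe lies elsewhere.
CD3D A_72_P504254: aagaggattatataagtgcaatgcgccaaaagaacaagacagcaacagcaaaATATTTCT
CD3D A_72_P185936: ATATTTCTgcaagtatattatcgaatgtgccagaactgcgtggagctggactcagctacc

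The 2 CD3E probes are shifted copies with 51 bases in common (in capitals, first 30 bases shown), so that they count as 1 target.
CD3E A_72_P165731: acccagcccAAGGATATTGCTGCCTCATTA
CD3E O2506: AAGGATATTGCTGCCTCATTATCTTTTGAA

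Spots with the same 60 bases were printed on the array for CD8A, CD8B and CD4 (capitals, first 30 bases shown). Such pairs measure how well a spot repeats itself on an array.
CD8A A_72_P077466 and O1570: TGCGTGCTCGCTGGAAGAAAAAACTAAATA
CD8B A_72_P088456 and O1572: CTCATACCTGAGAGCAACTTGTTACATAGT
CD4 A_72_P077421 and O5495: ATACCACACAGATCTCTGCAGCTGGCTAGT

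All 21 retained member spots were well above background on 48 of 48 arrays. Their median intensity over arrays ran from 125.75 for the CD4 spot to 23906 for CD247 A_72_P443441, against median local backgrounds of 27 to 34. The level of a gene is the mean over its retained probes of the log2 intensity minus the array median, and levels are compared between pigs and not between genes. The CD8A twin spots differed by an SD of 0.05 on the log2 scale over the 48 pigs, and the CD8B twins by an SD of 0.12. For comparison, the level of CD8A had an SD of 0.35 over the pigs and that of CD8B an SD of 0.33. Each pig has its own array, so these SDs hold differences between arrays as well as between pigs.

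LCK, the kinase that starts signalling from the receptor, was the member that passed the test between lines. In the low RFI HF group the lowest, median and highest LCK levels were 2.28, 2.56 and 2.76. The low RFI LF group had 2.22, 2.44 and 2.78. In high RFI HF pigs these values were 1.97, 2.27 and 2.61. For high RFI LF pigs they were 1.94, 2.33 and 2.82. The lines overlapped, but 20 of 24 low RFI pigs were above the median of the high RFI pigs. Group means were ordered low RFI HF, low RFI LF, high RFI LF and high RFI HF, at 2.55 ± 0.17, 2.49 ± 0.20, 2.36 ± 0.26 and 2.26 ± 0.18 (SD, n = 12), and neighbours in that order were within 1 SD of each other. LCK was overexpressed in pigs of the low RFI line by 0.21 ± 0.06 (SE) on the log2 scale, an FC of 1.16 with a 95% confidence interval of 0.09 to 0.33 on the log2 scale. The P-value was 0.000889 and the adjusted P-value 0.0339 by limma with BH correction over all 10946 genes. That test called 3.29% of all genes for line, and 1.65% as overexpressed in low RFI pigs, against 1 of the 8 members.

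The LCK difference was not equally large at all its probes. It was 0.31 ± 0.08 (SE) at A_72_P290209, with an adjusted P-value of 0.0120 over all probes (limma), and this was the 1 member probe of 21 called, where 2.77% of all probes were called and 1.32% as overexpressed in low RFI pigs. The difference was 0.26 ± 0.09 at O11768, 0.19 ± 0.07 at A_72_P155131 and 0.08 ± 0.05 at A_72_P338103, none of which passed. Over pigs, A_72_P290209 and O11768 followed each other with r = 0.94, while A_72_P338103 and A_72_P155131 did so with r = 0.09. With A_72_P290209 left out of the mean the adjusted P-value of LCK was 0.0624, and without A_72_P155131 it was 0.0522 (limma, chosen after the values were seen). The brightest probe alone, O11768, gave an adjusted P-value of 0.103. Leaving out single pigs changed the call for 10 of the 48 pigs, with adjusted P-values of 0.0504 to 0.0575. These pigs were low RFI HF replicates 5 and 9, low RFI LF replicates 1, 2 and 4, high RFI HF replicates 2 and 8, and high RFI LF replicates 2, 7 and 12.

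**Figure D1:**
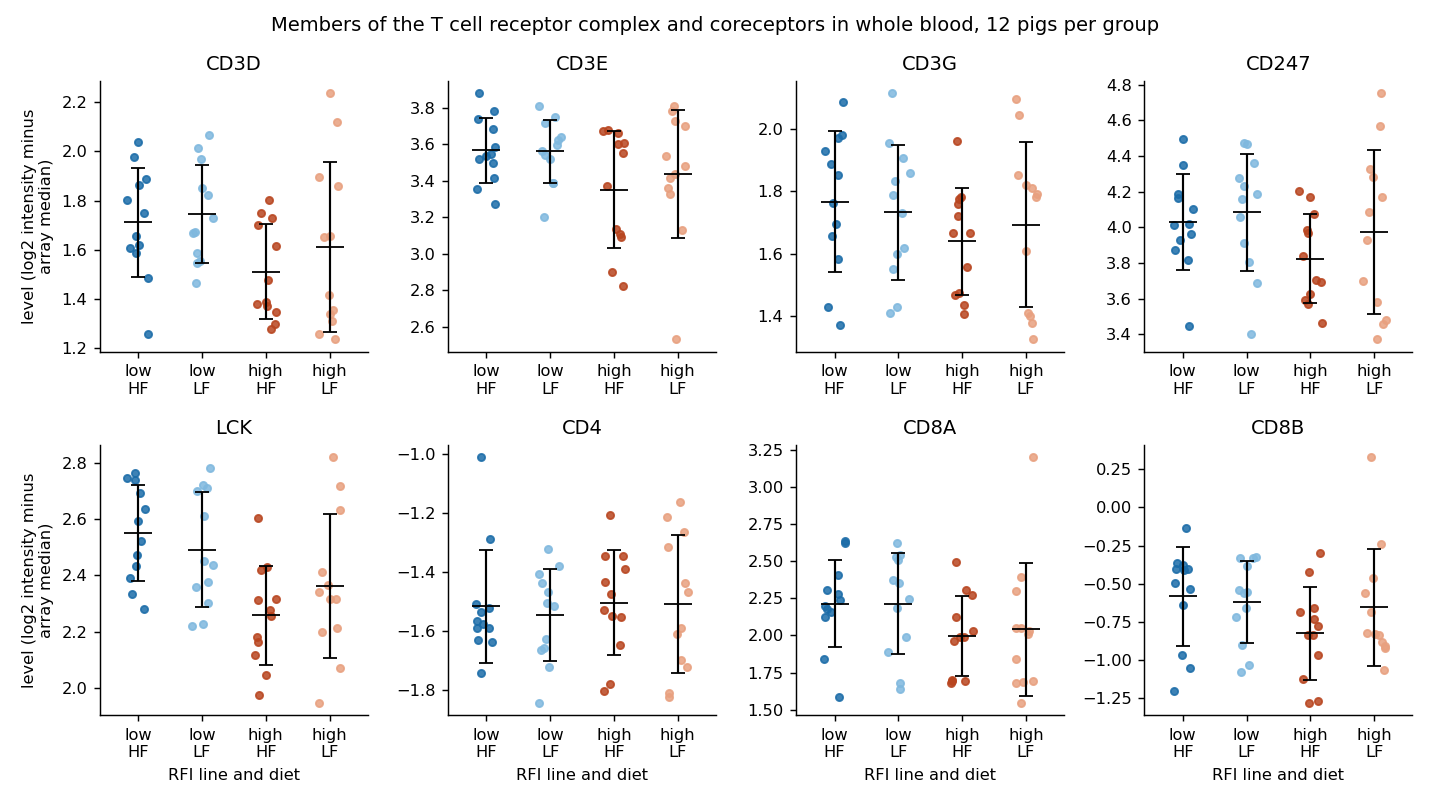
Level of each measured member (log2 intensity minus array median, y axis) in every pig (points), by RFI line and diet (x axis), with the mean and SD of each group of 12 pigs (black). For LCK the low RFI groups lie between 2.22 and 2.78 and the high RFI groups between 1.94 and 2.82, whereas CD4 runs from -1.84 to -1.01 in the low RFI groups and from -1.82 to -1.16 in the high RFI groups.

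The signalling chains of the receptor had line differences of the same sign that did not pass the correction. For CD3D, an invariant chain with 1 signalling motif, levels in low RFI pigs had a lowest, median and highest value of 1.26, 1.70 and 2.06, and levels in high RFI pigs of 1.24, 1.45 and 2.24. The lines overlapped over nearly their whole range, yet 23 of 24 low RFI pigs were above the high RFI median. The CD3D difference was 0.17 ± 0.07 (SE) on the log2 scale, with a P-value of 0.0231 and an adjusted P-value of 0.249 (limma). The probes of CD3D did not give the same value. The 2 dim adjoining probes had differences of 0.25 ± 0.08 and 0.21 ± 0.08, and the bright probe A_72_P014531, with a median intensity of 8473, had 0.03 ± 0.08.

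CD3E, the chain that pairs with both CD3D and CD3G, ran from 3.20 over a median of 3.56 to 3.88 in low RFI pigs and from 2.53 over 3.46 to 3.81 in high RFI pigs. The spread was wider in the high RFI line, with an SD of 0.33 compared with 0.17 (n = 24 each). CD3E differed by 0.17 ± 0.08 between lines (P-value 0.0305, adjusted P-value 0.291, limma). Replicate 12 of high RFI LF had the lowest level of CD3E, CD3D, CD247 and LCK of all 48 pigs, and without it the CD3E difference was 0.13. CD3G, which also takes part in removing the receptor from the surface, had means of 1.75 ± 0.22 in low RFI and 1.67 ± 0.22 in high RFI pigs (SD, n = 24). Its difference of 0.08 ± 0.06 (SE) did not pass the test (adjusted P-value 0.709, limma). The 2 CD3G probes, with differences of 0.13 (A_72_P088461, the brighter) and 0.04 (A_72_P761021), had r = 0.27 over pigs. With the column as deposited the CD3G difference was 0.03. CD247, the zeta chain, had 3 probes with differences of 0.13 to 0.19 and a gene value of 0.16 ± 0.10 (adjusted P-value 0.560, limma). Its level was 4.06 ± 0.29 in low RFI and 3.90 ± 0.37 in high RFI pigs (SD, n = 24), and 18 of 24 low RFI pigs were above the high RFI median.

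The coreceptor of helper T cells, CD4, had a difference of the opposite sign and close to 0. CD4 levels in low RFI pigs ran from -1.84 over a median of -1.55 to -1.01, and in high RFI pigs from -1.82 over -1.50 to -1.16, so that both lines covered the same range. The difference was -0.02 ± 0.06 (SE), with a 95% confidence interval of -0.14 to 0.09 and an adjusted P-value of 0.947 (limma). This value rests on 1 retained probe, the dimmest of all member spots. CD8A, the chain common to both forms of the cytotoxic coreceptor, ran from 1.58 over a median of 2.24 to 2.63 in low RFI pigs and from 1.55 over 2.002 to 3.20 in high RFI pigs. Its difference was 0.20 ± 0.10 (P-value 0.0499, adjusted P-value 0.383, limma). The highest CD8A, CD8B and LCK levels of all belonged to the same pig, replicate 9 of high RFI LF, and without it the CD8A difference was 0.25 with an adjusted P-value of 0.1005. CD8B, found mainly on T cells with an alpha beta receptor, differed by 0.14 ± 0.09 (adjusted P-value 0.616, limma), with means of -0.60 ± 0.29 and -0.74 ± 0.35 (SD, n = 24).

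Of the 8 members, 7 had a higher mean in low RFI pigs, where 63.9% of all genes did, and their median line difference was 0.16 compared with 0.03 over all genes. Without correction, 4 members (LCK, CD3D, CD3E and CD8A) had a P-value under 0.05, where the test gave 13.1% of all genes and 7.43% in that direction. The criterion of the study's methods, an unadjusted P-value under 0.01 with an FC above 1.1, was met by 1 of 8 members (LCK) and by 6.19% of all genes, 3.23% in that direction. By probe it was met by 6 of 21 member spots, compared with 5.78% of all probes and 2.7% in that direction. Those 6 spots belong to LCK, CD3D and CD8A, and some are probes of the same gene. The members are linked to each other over pigs, so that these counts are not counts of independent results.

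**Figure D2:**
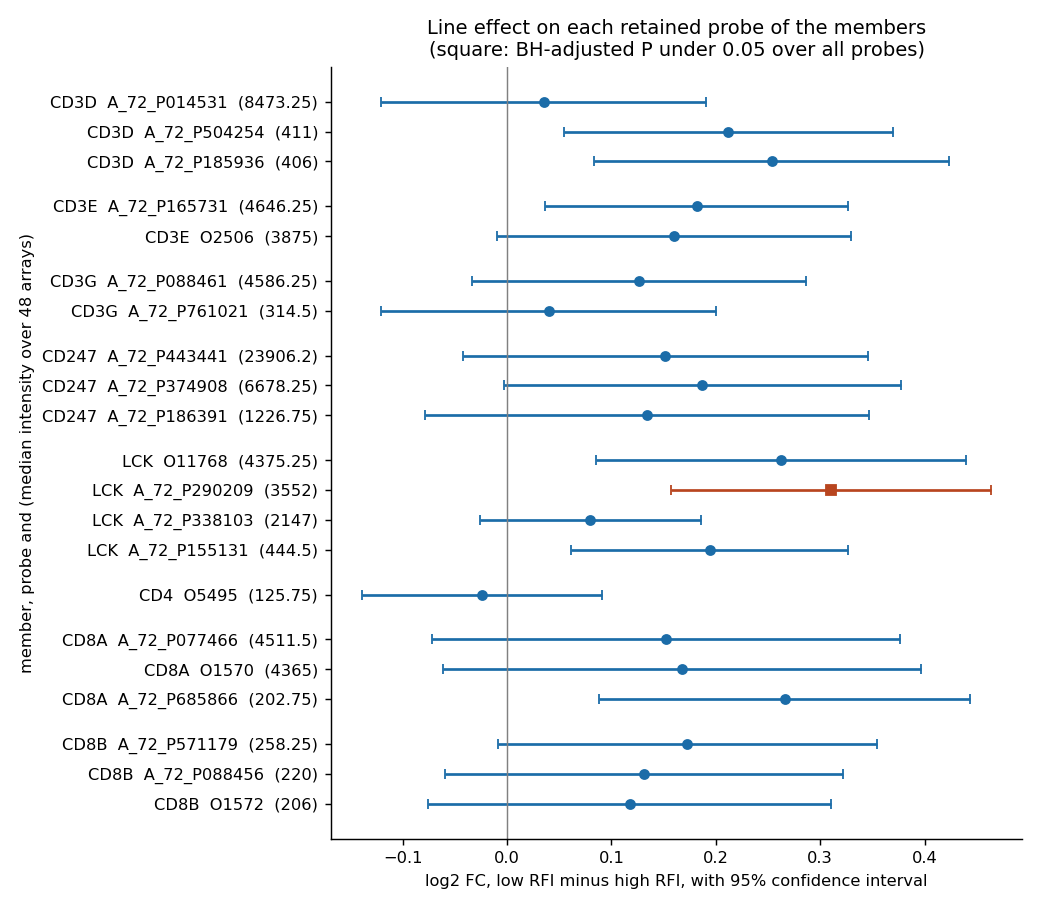
Line difference of each retained member probe (log2 FC, low RFI minus high RFI, x axis) with its 95% confidence interval, and each probe's median intensity in brackets. Of 21 probes 20 are above 0, where 58.6% of all probes are, and the 1 square, LCK A_72_P290209 at 0.31, passed BH correction.

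Whether members differed from each other in their line difference was tested on the within-pig difference of each of the 28 pairs, with line labels permuted 100000 times within diet (two-sided, BH over the 28 pairs, chosen after the values were seen). The pair that passed was LCK and CD4, whose line differences were 0.24 apart on the log2 scale (permutation P-value 0.00066, adjusted 0.0185). Relative to CD4, LCK exceeded the median of the high RFI line in 22 of the 24 pigs of the other line. CD8A and CD4 were 0.22 apart (adjusted permutation P-value 0.239), and CD3D and CD4 were 0.19 apart (adjusted permutation P-value 0.0899). LCK and CD3E were 0.04 apart (adjusted permutation P-value 0.800). No difference of LCK from any CD3 chain, CD247 or CD8 chain passed, so that the larger LCK value is not shown to be particular to LCK within the complex.

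Within slides the line difference of LCK was above 0 on 6 of 6 slides and ran from 0.01 to 0.47. The same held for CD3D (0.01 to 0.36), for CD3E (0.00 to 0.27) and for CD247 (0.06 to 0.28). CD8A was higher in low RFI pigs on 5 of 6 slides, from -0.36 on slide 6 to 0.60 on slide 5, and the pig with the highest CD8A level was on slide 6. CD8B also had 5 slides above 0 and CD3G 4. CD4 was divided evenly, with 3 slides above 0 and 3 below, from -0.21 to 0.09. With slide as a block the adjusted P-value of LCK was 0.0220 (limma), and no other member passed. Slides were scanned on 3 days with whole slides in each day, so that the slide block also removes the scan day.

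**Figure D3:**
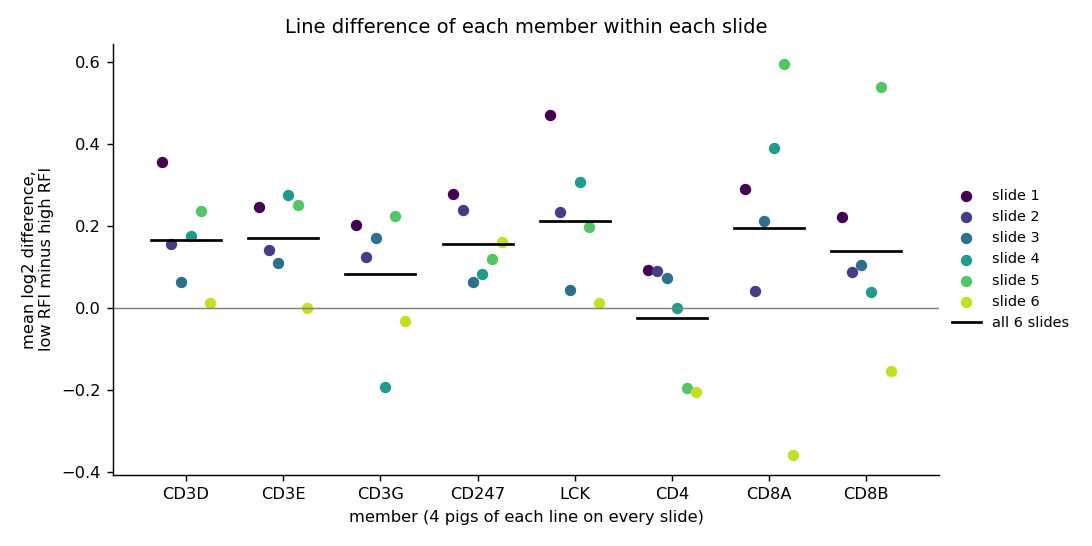
Mean log2 difference between low RFI and high RFI pigs within each slide (points, 4 pigs of each line per slide) for each member, with the value over all 6 slides (black line). LCK, CD3D, CD3E and CD247 are at or above 0 on every slide, and CD8A ranges from -0.36 to 0.60.

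Diet moved no member past the test. The HF minus LF difference ran from -0.10 (CD247) to 0.02 (CD4) on the log2 scale, with a median of -0.03 compared with 0.01 over all genes. In detail, CD247 had a mean of 3.93 ± 0.28 under HF and 4.03 ± 0.40 under LF (SD, n = 24), a difference of -0.10 ± 0.10 with a P-value of 0.285. For LCK the difference was -0.02 ± 0.06, with a 95% confidence interval of -0.14 to 0.10. The lowest adjusted P-value over the members was 0.9995, and by limma 0 of 10946 genes were called for diet, with 0 of 8 members and 1.94% of all genes at an unadjusted P-value under 0.05. None of the 21 member probes and 1.64% of all probes reached an unadjusted P-value of 0.05 for diet. The mean under HF was higher in 1 of 8 members (CD4), where it was so in 57.4% of all genes.

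The interaction between line and diet was above 0 for all 8 members, where 50.5% of all genes were, and passed for none. It was largest in CD8B, at 0.21 ± 0.18 (SE, P-value 0.268), and in LCK, at 0.16 ± 0.12 (P-value 0.179), and the lowest adjusted P-value was 0.882 (limma, 0 of 10946 genes called). Without correction 0 members and 2.33% of all genes had a P-value under 0.05. The line difference of LCK was 0.29 ± 0.08 under HF (adjusted P-value 0.0841) and 0.13 ± 0.08 under LF (adjusted P-value 0.817), values whose difference is that interaction. In CD8B the line difference was 0.24 ± 0.13 under HF and 0.04 ± 0.13 under LF. CD8B was lower by 0.17 ± 0.13 under HF in high RFI pigs and higher by 0.04 ± 0.13 under HF in low RFI pigs, and neither value passed. Within HF 0.904% of all genes were called for line and within LF 0.320%, and no member was called in either.

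Among genes that carry the signal onward from the receptor, 22 of 30 listed were measured, and 1 rose in low RFI pigs, 0 fell and 21 did not pass, a share called near the 3.29% over all genes. The gene that rose was PLCG1, the phospholipase that makes the second messengers for calcium and protein kinase C, by 0.23 ± 0.07 (adjusted P-value 0.0340, limma). FYN, a kinase related to LCK, had 0.16 ± 0.06 (adjusted P-value 0.185), LCP2, the scaffold SLP-76, had 0.20 ± 0.09 (0.274) and RASGRP1, an activator of Ras, had 0.17 ± 0.08 (0.391). The median of the list was 0.04. Of the brakes on the receptor 11 of 21 were measured, of which 0 rose, 1 fell and 10 did not pass, again 1 gene beside the 3.29% over all genes. PAG1, a membrane adaptor that brings the inhibitory kinase CSK to LCK, fell by 0.23 on the log2 scale (SE 0.06, adjusted P-value 0.0196, limma). SIT1 had 0.14 ± 0.05 (adjusted P-value 0.156), the checkpoint receptor PDCD1 had 0.21 ± 0.09 (0.232), and UBASH3B, a phosphatase that acts on ZAP70, had -0.08 ± 0.07 (0.776). Their median was 0.06.

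Costimulatory and other surface molecules had 12 of 21 members measured, and none passed in either direction, where 3.29% of all genes passed. The lowest P-values were those of the costimulatory receptor CD27 (0.22 ± 0.08, adjusted P-value 0.154), the adhesion receptor CD96 (0.16 ± 0.07, 0.312), the early activation marker CD69 (-0.17 ± 0.08, 0.348) and CD2 (0.13 ± 0.07, 0.462). In the list of T cell transcription factors and identity genes, 13 of 20 were measured, of which 1 rose, 0 fell and 12 did not pass, with the same 3.29% over all genes. EOMES, a factor of memory and cytotoxic lymphocytes, rose by 0.50 ± 0.09 (adjusted P-value 0.000371, limma). SATB1 had 0.22 ± 0.07 (adjusted P-value 0.0694), the survival receptor IL7R 0.21 ± 0.08 (0.198) and GATA3 0.22 ± 0.10 (0.324). No gene of these 4 lists passed for diet, and the lowest P-values for diet were those of SLA2 (-0.17 ± 0.09, P-value 0.0590) and PIK3R1 (-0.25 ± 0.15, P-value 0.0933).

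Spots whose description names a T cell receptor chain were taken from the annotation after it had been read, 8 in all, of which 5 were higher and 3 lower in low RFI pigs and 0 were called or had an unadjusted P-value under 0.05, where 58.6% of all probes were higher and 2.77% were called. The largest difference was 0.22 ± 0.13 for the delta chain spot A_72_P413738 (adjusted P-value 0.528, limma). The gamma chain constant region spot A_72_P184086 had 0.09 ± 0.09 and the alpha chain spots A_72_P159701 and A_72_P414683 had 0.13 ± 0.08 and 0.05 ± 0.07. The beta chain spots A_72_P227712, O7059 and A_72_P397883 had -0.06 ± 0.08, -0.01 ± 0.07 and 0.03 ± 0.11. The remaining spot, A_72_P441823, is described as the pre T cell receptor alpha chain (PTCRA) and had -0.01 ± 0.08 at a median intensity of 61. Over pigs the r of these spots with the mean of CD3D, CD3E and CD3G ran from -0.46 for the alpha spot A_72_P159701 to 0.69 for the delta spot, values that describe these arrays and were not tested. The lowest r comes from a dim spot, described only as a partial match to a rat V segment. Median intensities were 103 and 90 at the alpha spots and 315, 204 and 102 at the beta spots, in the order given above. The delta spot had 864 and the gamma spot 8965.

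Markers of other blood cells moved between lines beside the members, and their part in the values above was not tested. Over all genes 63.9% had a higher mean in low RFI pigs, 3.29% were called for line and the median difference was 0.03, and the counts of markers that follow are read against these shares. Of 5 T cell markers measured besides the members (CD2, CD5, CD27, TRAT1 and IL7R), all 5 had higher means in low RFI pigs and 0 passed, with a median of 0.13. The summed level of a list is the log2 of its levels added on the linear scale, so that its brightest genes weigh most, here CD5. For these markers it ran from 3.83 over a median of 4.15 to 4.50 in low RFI pigs, and from 3.51 over 3.997 to 4.97 in high RFI pigs. Of 6 B cell markers 3 fell and 0 rose. MS4A1 (CD20) fell by 0.36, the adaptor BLNK fell by 0.23 and FCRLA fell by 0.30 on the log2 scale (adjusted P-values 0.00117, 0.0217 and 0.0231, limma). The summed B cell level ran from 4.11 over 4.69 to 5.45 in low RFI and from 4.68 over 4.98 to 5.29 in high RFI pigs. In 8 markers of NK and cytotoxic cells EOMES rose and 0 fell, 5 had higher means in low RFI pigs, a share near that of all genes, and the median was 0.12. The activating receptor KLRK1 had 0.28 ± 0.12 (adjusted P-value 0.287) and NCR1, a receptor found on NK cells, had -0.18 ± 0.09 (0.371), and the protease GZMA had -0.32 ± 0.20 (0.579). The summed NK and cytotoxic level had medians of 5.57 in low RFI (5.05 to 6.15) and 5.32 in high RFI pigs (4.84 to 6.61). In the myeloid lists CD14 fell by 0.47 and CXCR2 fell by 0.42 on the log2 scale, each the 1 gene called of 6 monocyte and 7 neutrophil markers. The summed monocyte level ran from 3.84 over 4.58 to 5.68 in low RFI and from 3.79 over 4.78 to 5.56 in high RFI pigs. For neutrophils the summed level ran from 6.44 over 7.45 to 8.61 in low RFI and from 7.15 over 7.73 to 8.97 in high RFI pigs. Of 7 erythroid markers all 7 had higher means in the low RFI line (differences of 0.06 to 0.26, median 0.10), and 1 passed, SLC4A1, which rose by 0.26 ± 0.07. The summed erythroid level had medians of 10.51 in both lines (9.74 to 11.10 in low RFI and 9.77 to 11.01 in high RFI pigs). It was set almost wholly by AHSP and HBB, with mean levels of 9.71 and 9.19 in low RFI pigs, and hardly by SLC4A1, at 1.06. None of 4 platelet markers passed, with the lowest P-value in TUBB1 (-0.09 ± 0.07, P-value 0.186), and their summed level had medians of 5.36 (4.72 to 5.94) in low RFI and 5.35 (5.11 to 6.06) in high RFI pigs. No blood cell marker passed for diet, and the lowest P-values for diet were those of the erythroid factor KLF1 (0.42 ± 0.12, P-value 0.00161) and of S100A8 (0.50 ± 0.27, P-value 0.0678), each with an adjusted P-value of 0.9995 (limma).

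**Figure D4:**
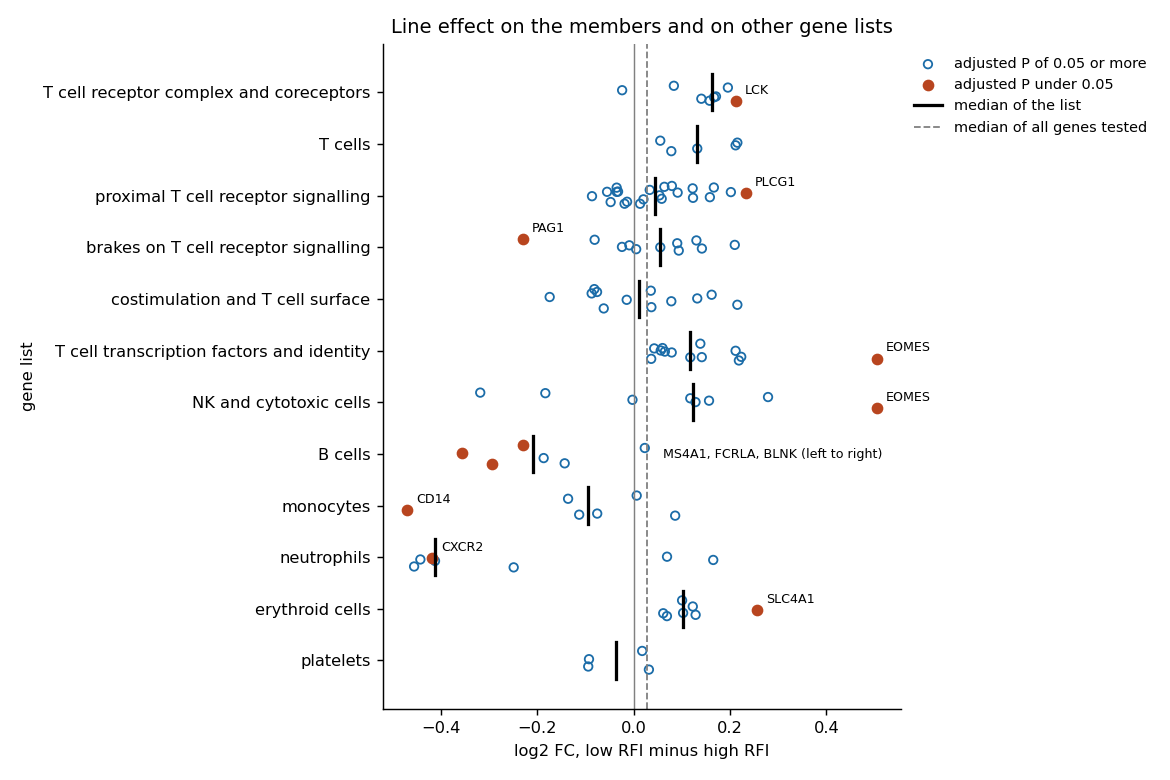
Line difference (log2 FC, low RFI minus high RFI, x axis) of every measured gene in each list (y axis, points), with list medians as black bars and the median of all genes, 0.03, as a dashed line. The T cell receptor list has its median at 0.16 and 1 gene past the test (LCK), and the B cell list has its median at -0.21 and 3.

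Levels of the members varied together from pig to pig. After the group means were removed, Pearson's r of the 28 pairs over 48 pigs ran from 0.04 to 0.85 with a median of 0.53. By permutation within groups (100000, two-sided, BH over 28 pairs) 24 pairs had an adjusted P-value under 0.05 for r and 24 for Spearman's rho. The share over pairs of all genes is not given here, so that this count is not shown to be particular to the members. CD3D and CD247 were the closest pair (r = 0.85 and rho = 0.85, each with the smallest permutation P-value possible, 1e-05, adjusted 3.5e-05 and 5.6e-05). Without the 2 pigs farthest from the CD3D median r stayed at 0.85, and within slides it ran from 0.87 to 0.96. CD8A and CD8B, the chains of one receptor, had r = 0.75 and rho = 0.67 (permutation P-values 1e-05, adjusted 3.5e-05 and 5.6e-05). Without the 2 farthest pigs r was 0.64, and within slides it ran from 0.01 to 0.97.

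CD4 had the weakest links, with a median r of 0.34 over its 7 pairs compared with 0.58 over the 21 pairs without it. CD4 with CD8B had r = 0.04 and rho = -0.08 (permutation P-values 0.79 and 0.61, adjusted 0.79 and 0.61). CD4 with LCK had r = 0.41 and rho = 0.37 (permutation P-values 0.0070 and 0.014, adjusted 0.012 and 0.020), and r was 0.41 without the 2 farthest pigs. Of the pigs with at least 5 members among the 12 lowest levels, 8 were high RFI and 0 low RFI, and of those with at least 5 among the 12 highest, 3 were high RFI and 7 low RFI (described, not tested). Replicate 11 of high RFI LF was among the 12 highest for all 8 members. Between CD3E and CD3G r was 0.30 and rho 0.40 (permutation P-values 0.049 and 0.0048, adjusted 0.054 and 0.0085). The median r over the pairs was 0.35 to 0.82 within the 6 slides of 8 pigs each, 0.54 with slide means removed, and 14 of 28 pairs were above 0 on every slide. All genes on an array share its RNA, labelling and centring. Against the mean of CD3D, CD3E and CD3G the median r over all other genes was 0.13.

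The genes whose levels followed that CD3 mean most closely over the 48 pigs, out of 10938 compared, were AMZ2, HNRNPK, LOC733651, ARGLU1, RCN2, APOBEC3F, SKAP1, ETS1, LOC100517559 and SMARCE1, with r from 0.82 to 0.79. SKAP1 is an adaptor in T cells that links the receptor to adhesion, and ETS1 is a transcription factor of lymphocytes. SKAP1 was overexpressed in low RFI pigs by 0.20 on the log2 scale (adjusted P-value 0.0415, limma), and the other 9 were not called. CD247, not part of that mean, had r = 0.86, and 0 genes outside the members had a higher value. LCK had r = 0.68, with 287 other genes above it. CD8A had 0.61 with 794 above it, CD8B 0.60 with 920 and CD4 0.46 with 2489. These values describe likeness over pigs on shared arrays and were not tested.

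Members were also set against the summed level of each marker list and against the array's signal over background, 64 relations in all with group means removed. The NK and cytotoxic sum was carried mostly by GZMB, NKG7, TBX21 and KLRK1 and hardly by EOMES, PRF1, GZMA and NCR1. LCK followed the summed level of NK and cytotoxic markers with r = 0.86 and rho = 0.83 (permutation P-values 1e-05, adjusted 0.00016 and 0.00032). Without the 2 farthest pigs r was 0.83, and it ran from 0.71 to 0.99 within slides. CD3G had r = 0.27 and rho = 0.21 with the same list (permutation P-values 0.097 and 0.18, adjusted 0.27 and 0.34). With the T cell markers the order was reversed, at r = 0.66 and rho = 0.72 for CD3G (permutation P-values 2e-05 and 1e-05, adjusted 0.00018 and 0.00032) and r = 0.51 and rho = 0.44 for LCK (permutation P-values 0.00097 and 0.0030, adjusted 0.0045 and 0.012). Differences between these correlations were not tested. CD3E with the T cell markers had r = 0.19 and rho = 0.17 (permutation P-values 0.28 and 0.25, adjusted 0.45 and 0.42).

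The summed erythroid level, set almost wholly by AHSP and HBB, went against the members in 6 of 8 relations after correction. For CD3G with the erythroid list r was -0.62 and rho -0.59 (permutation P-values 1e-05 and 6e-05, adjusted 0.00016 and 0.00048). Without the 2 farthest pigs r was -0.64, and it was below 0 on 6 of 6 slides. LCK also followed the B cell markers, with r = 0.37 and rho = 0.40 (permutation P-values 0.0073 and 0.0065, adjusted 0.025 and 0.024), but r was 0.20 with slide means removed and ran from -0.88 to 0.94 within slides. No relation with monocyte, neutrophil or platelet markers passed. LCK was the member that followed the signal over background of the array, with r = 0.44 and rho = 0.47 (permutation P-values 0.0027 and 0.0017, adjusted 0.010 and 0.0083). Without the 2 farthest pigs that r was 0.46, and within slides it ran from 0.05 to 0.93. The median signal over background was 10.92 in low RFI (5.91 to 14.83) and 10.99 in high RFI pigs (7.80 to 15.97), and its part in the LCK difference was not tested.

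**Figure D5:**
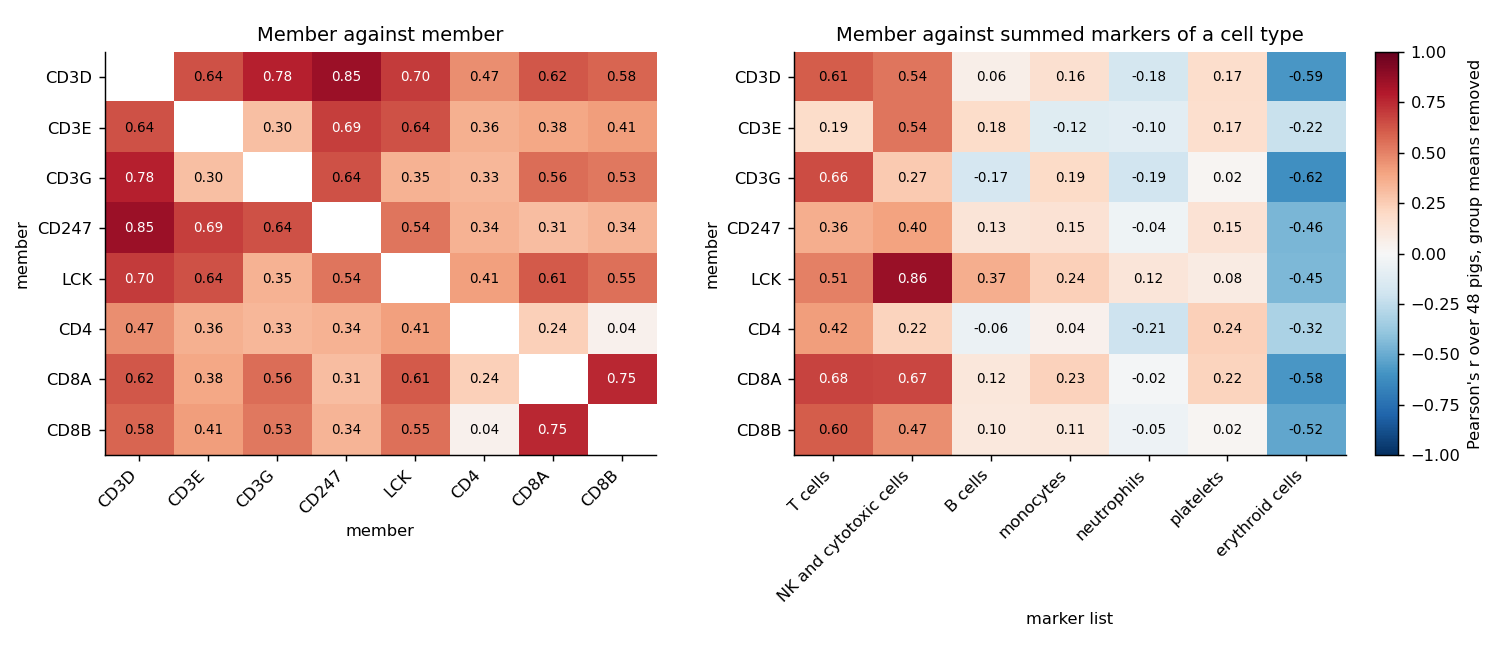
Pearson's r over 48 pigs with group means removed, between the members (left) and between each member and the summed level of each marker list (right). CD3D and CD247 reach 0.85, CD4 and CD8B 0.04, LCK and the NK and cytotoxic list 0.86, and the erythroid column is below 0 throughout, down to -0.62 for CD3G.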

How the data were processed

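Scanner files deposited by the authors (Agilent Feature Extraction 10.7.3.1) give the intensity of each spot with quality calls. The table deposited by the authors, who worked in R 3.0.2, holds log2 values of 37113 retained spots, which on 47 arrays equal the log2 median intensity minus the array median over these spots, with no background subtracted (within 1e-06). In the column of high RFI HF replicate 1, 24 entries follow that rule and a single value fills the other 37089, so this column was rebuilt from its scanner file. The thresholds of the authors' spot filter are not given in the sources used here. Blood cell counts and qPCR were not analysed here.

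Genes were named by the scanner files, and their value was the mean over retained probes. By accession, 11 of the 21 member spots were found in the RefSeq table, all under the same symbol. Line, diet and interaction were fitted with limma 3.58.1 in R 4.3.3 on all probes and on all genes, with BH correction over all of them, and tested on simulated data. Differences are low minus high RFI, HF minus LF, and HF minus LF in low RFI minus that in high RFI. Other steps were run in Python 3.11.15 (scipy 1.17.1, numpy 2.4.6, matplotlib 3.10.9, pandas 2.3.3). Replicate numbers were taken as labels only. The number of arrays limits the precision, and no non-control spot was saturated (0 spots).

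Members and gene lists were chosen with earlier results of these data known, and 2 list genes are not reported here. The 8 members with retained spots were described, and of each list up to 4 genes with the lowest line P-values, those called, and for diet the 2 with the lowest P-values over the signalling lists and over the blood cell lists. Fewer were named for line in the blood cell lists. The genes most like CD3 were the 10 with the highest r. Alternatives were an analysis of variance without moderated variance, the background-corrected signal centred on the median or the 75th percentile, normexp (offset 50) with quantile normalization, other probe filters, a robust prior with a trend, blocks for the slide or for the replicate number, the brightest probe of a gene, the deposited column, and leaving out pigs. Counting identical probes once and leaving out LCK probes were added after the values were seen.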

Additional observations from a re-analysis of the deposited data

Results flagged for a closer look

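Besides the retained spot, 2 CD4 spots that are not in the table of retained spots, and that entered only the alternative with all non-control probes (CD4 line difference -0.01), were above background on some or all arrays. The spot A_72_P077421, whose 60 bases equal those of the retained CD4 spot, was well above background on 48 of 48 arrays, with a median intensity of 122.5 compared with 125.75 at its twin. Its level was -1.55 ± 0.21 in low RFI and -1.56 ± 0.17 in high RFI pigs (SD, n = 24), a difference of 0.02 compared with -0.02 at the twin. The twins differed by an SD of 0.15 on the log2 scale over pigs and had r = 0.68, whereas the brighter CD8A twins had an SD of 0.05 and r = 0.99. The other CD4 spot, A_72_P306178, was well above background on 16 of 48 arrays, with a median intensity of 49, and its r with the other CD4 spots was 0.04 and 0.24, so a CD4 signal is not shown there. No member passed the interaction test, so that no difference between the diets or lines in an effect is listed here, and outlying samples were not searched for in groups of 12.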

How the results depend on the processing

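LCK kept its call for line in 13 of 17 alternatives, with adjusted P-values of 0.0105 to 0.0474, and lost it in 4. The count of members called for line was then 0 with the brightest probe (LCK 0.26, adjusted P-value 0.103) and 0 with the column as deposited (LCK 0.19, adjusted P-value 0.321), and LCK was 0.22 without probe A_72_P155131 and 0.18 without A_72_P290209. Leaving out each pig in turn gave 0 to 1 members called for line and LCK differences of 0.19 to 0.23. Values that changed sign were never called, and 19 came from single pigs left out (10 for diet, 9 for the interaction). With the column as deposited, in which 1 repeated value stands for a pig, the sign changed for line in CD8B (-0.0127), for diet in CD3G (0.0442), CD8A (0.0201), CD8B (0.0871) and LCK (0.00194), and for the interaction in CD3D (-0.0478), CD3G (-0.0208), CD4 (-0.331), CD8A (-0.0399) and CD8B (-0.101). The line difference of CD4 was -0.20 with that column. Without the rebuilt pig the diet value of CD3G was 0.000497. With single pigs left out, the diet values ran from -0.0267 to 0.00832 (CD3G), -0.00592 to 0.0329 (CD4) and -0.0480 to 0.0307 (CD8A), and the interaction from -0.0216 to 0.0530 (CD4) and -0.0611 to 0.102 (CD8A). Over all genes 75 were called for line with the column as deposited and 551 with the replicate number as a block, compared with 360. The replicate number is no known pairing: deviations of pigs with the same number had r above 0.1 in 44 of 72 pairs, and under the replicate block the adjusted P-value of LCK was 0.0143 and no other member's call changed. Differences under about 0.1 are near the standard errors of 0.06 to 0.10 here. CD4, at a median intensity of 125.75 over a background of 33, is the least securely measured member.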
